A study of Mus musculus with 4 samples.

Results

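Serine, folate and proline synthesis was followed here through 10 enzyme genes in MLE-12 cells, a mouse line of alveolar epithelial origin immortalised with the SV40 large T antigen. The genes were chosen by name, for their place in these pathways, but with earlier results of these data known. They make up 10 of the 46078 genes in the deposited count table. All 10 reached at least 1 CPM (reads scaled to a common library total) in at least 1 library and were among the 12348 genes tested. The series concerns Lingo1, a membrane protein best known from neurons, in the repair of a scratched epithelial layer. Its 4 conditions were cells labelled Lingo1 knockout (KO) and sampled 24 hours after a scratch, KO-labelled cells left unscratched, wild-type (WT) cells 24 hours after a scratch, and unscratched WT cells. Each condition had 1 library of messenger RNA, and all 4 shared the MLE-12 background. How the knockout was made, and whether the line is a single clone, is not given in the sources used here.

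Serine is made from the glycolytic intermediate 3-phosphoglycerate by Phgdh, which oxidises it, Psat1, which adds the amino group, and Psph, which removes the phosphate. Shmt1 in the cytosol and Shmt2 in mitochondria split serine into glycine and a carbon unit carried by folate. Mthfd2, Mthfd1l and Aldh1l2 handle that unit inside mitochondria, Mthfd1 handles it in the cytosol, and purines and thymidylate are built with it. Pycr1 carries out the last step of proline synthesis, after Aldh18a1. In many mammalian cells the transcription factor ATF4 raises several of these genes together during amino acid shortage or stress.

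The mouse genes lie on 7 chromosomes, with coordinates from GENCODE M21 on mm10. Phgdh (ENSMUSG00000053398) spans chr3:98313170-98339990, Psat1 (ENSMUSG00000024640) chr19:15904678-15947337 and Psph (ENSMUSG00000029446) chr5:129765558-129787449, all on the minus strand. Shmt1 (ENSMUSG00000020534) spans chr11:60788104-60811718 and Shmt2 (ENSMUSG00000025403) chr10:127517123-127522444, both minus. Mthfd1 (ENSMUSG00000021048) spans chr12:76255298-76319803 and Mthfd1l (ENSMUSG00000040675) chr10:3973118-4167081, both plus, and Mthfd2 (ENSMUSG00000005667) spans chr6:83305691-83325908, minus. Aldh1l2 (ENSMUSG00000020256) spans chr10:83487450-83534140 and Pycr1 (ENSMUSG00000025140) chr11:120635712-120643769, both minus. All are protein-coding.

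The sequences just before the RefSeq starts are shown for 3 of these enzymes and for Aldh18a1, as examples whose upstream letters differ. These genes, like the enzymes not shown, were higher after the scratch in both genotypes. RefSeq promoter sequence (GRCm38.p6) was matched for 9 of the 10 enzymes, with Aldh1l2 the other. Each line gives 250 bases on the gene's own strand, 5′ to 3′, ending at the base before the RefSeq start. These starts differ from the GENCODE gene ends given above: the Mthfd2 window lies inside the GENCODE span of the gene, and the Phgdh and Pycr1 windows overlap theirs by a few bases. Capitals mark matches, on either strand, to the ATF4-type composite TGATGNAA, the E-box CACGTG, the CCAAT box or the GC box GGGCGG, and no marked matches overlap in these 4 windows. All 4 genes are on the minus strand, at chr3:98339970-98340219 for Phgdh, chr6:83317605-83317854 for Mthfd2, chr11:120643749-120643998 for Pycr1 and chr19:40588464-40588713 for Aldh18a1.
Phgdh: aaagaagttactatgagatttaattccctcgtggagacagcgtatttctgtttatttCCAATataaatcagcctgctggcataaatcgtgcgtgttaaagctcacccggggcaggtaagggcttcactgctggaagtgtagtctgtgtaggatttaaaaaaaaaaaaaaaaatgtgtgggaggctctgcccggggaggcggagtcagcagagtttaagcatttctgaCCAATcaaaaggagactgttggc
Mthfd2: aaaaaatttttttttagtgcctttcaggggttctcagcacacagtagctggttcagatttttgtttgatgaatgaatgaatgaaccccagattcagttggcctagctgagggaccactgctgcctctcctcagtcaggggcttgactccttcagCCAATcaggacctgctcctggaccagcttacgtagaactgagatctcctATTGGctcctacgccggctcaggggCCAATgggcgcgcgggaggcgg
Pycr1: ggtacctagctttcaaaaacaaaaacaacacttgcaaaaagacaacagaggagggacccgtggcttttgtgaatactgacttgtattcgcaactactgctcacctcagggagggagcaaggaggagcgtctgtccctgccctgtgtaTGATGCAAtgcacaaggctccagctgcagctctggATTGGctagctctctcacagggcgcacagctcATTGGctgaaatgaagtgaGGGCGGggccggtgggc
Aldh18a1: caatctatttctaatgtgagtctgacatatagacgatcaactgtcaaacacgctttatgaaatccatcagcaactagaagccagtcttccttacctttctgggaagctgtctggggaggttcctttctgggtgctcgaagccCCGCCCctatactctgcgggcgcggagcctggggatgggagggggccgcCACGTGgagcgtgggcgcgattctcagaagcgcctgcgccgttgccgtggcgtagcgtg
Psat1 has 2 RefSeq starts, so 10 enzyme windows were searched. Only the Pycr1 window held TGATGNAA (as TGATGCAA), a motif found in 3.45% of the 32851 promoter windows searched. No enzyme window held CACGTG, which Aldh18a1 has and which 6.02% of all windows hold. CCAAT was present in 7 of the 10 enzyme windows, against 33.8% of all windows, and GGGCGG in 6 of 10, against 32.7%, with 1 Psat1 window counted for each. The enzyme windows held 6 to 24 CG dinucleotides, against a median of 6 over all windows. Pycr1 itself did not pass the test for scratch given below (edgeR adjusted p = 0.106). These matches describe letters in a short window, and any link to the scratch response was not tested.

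The libraries held 48333801 counts for KO-labelled scratched, 29533746 for KO-labelled unscratched, 27907279 for WT scratched and 26903429 for WT unscratched cells. The targeted gene did not set the labels apart: Lingo1 stood at 41.4 and 41.2 CPM in the scratched and unscratched libraries labelled KO, against 42.9 and 46.4 CPM in WT, and it did not pass the additive test for genotype, so genotypes are given as labelled. Epithelial Cdh1, Krt8 and Krt19 were abundant in all 4 libraries and Epcam lay at 5.28 to 5.47 CPM, while Krt18 stayed at 0.287 CPM or less and Cldn4 was at 0 counts. Of the alveolar type 2 markers, Sftpb, Sftpc, Abca3 and Nkx2-1 were present, Napsa lay at 1.17 to 1.90 CPM, and Lamp3 and Slc34a2 had 12 counts or fewer. Sftpa1 and Sftpd were at 0 counts in all 4, as were the leukocyte markers Ptprc and Adgre1 and endothelial Cdh5. The alveolar type 1 list, led by Cav1 and Ager, summed to 2639 to 2969 CPM, against 325 to 451 CPM for the type 2 list. The endothelial list summed to 179 to 219 CPM, nearly all of it Tek, and the leukocyte list to 1.80 to 2.11 CPM, mostly Cd68. A ribosomal RNA locus took 0.682% and 0.184% of counts in KO-labelled scratched and unscratched cells, and 0.116% and 0.577% in WT.

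Psat1 was the most abundant of the 10 enzymes per length, followed by Mthfd2 and Shmt2, in all 4 libraries. On the authors' RPKM scale, which divides reads by gene length and depth, Psat1 stood at 137 and 111 in KO-labelled scratched and unscratched cells and at 154 and 120 in WT scratched and unscratched cells. Mthfd2, the mitochondrial methylene-tetrahydrofolate dehydrogenase, had RPKM levels of 70.9 and 51.1 in KO-labelled cells and 75.5 and 51.8 in WT. Shmt2 had 56.6 and 41.8 RPKM in KO-labelled cells and 47.6 and 38.5 RPKM in WT. Each of these 3 genes kept its rank in every library, whatever its change.

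Mthfd1 and Phgdh followed and changed places with genotype: Mthfd1 ranked 4 in both KO-labelled libraries and 5 in both WT libraries. Pycr1 ranked 6 and Psph 7 throughout, at 18.6 to 21.8 and 9.11 to 13.6 RPKM. Mthfd1l, Aldh1l2 and Shmt1 closed the order at 5.22 to 11.3 RPKM, in an order that varied between libraries. With 1 library a condition, neighbours in this order have no spread between cultures to be set against. The mitochondrial form exceeded its cytosolic counterpart for Shmt2 against Shmt1 and for Mthfd2 against Mthfd1, but not for Mthfd1l against Mthfd1. Shmt2 was at 9.33 and 8.01 times the RPKM of Shmt1 in KO-labelled scratched and unscratched cells, against 7.16 and 6.19 times in WT. Mthfd2 was at 1.696 and 1.36 times the RPKM of Mthfd1 in KO-labelled cells, against 2.21 and 1.81 times in WT. Mthfd1l was at 0.228 and 0.208 times the RPKM of Mthfd1 in KO-labelled scratched and unscratched cells, and 0.218 and 0.208 times in WT. Together the 10 enzymes summed to 1070 CPM in KO-labelled scratched and 845 CPM in KO-labelled unscratched cells, against 1074 CPM in WT scratched and 828 CPM in WT unscratched cells. That is 0.106%, 0.0846%, 0.107% and 0.0834% of the counts in the same order.

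**Figure D1:**
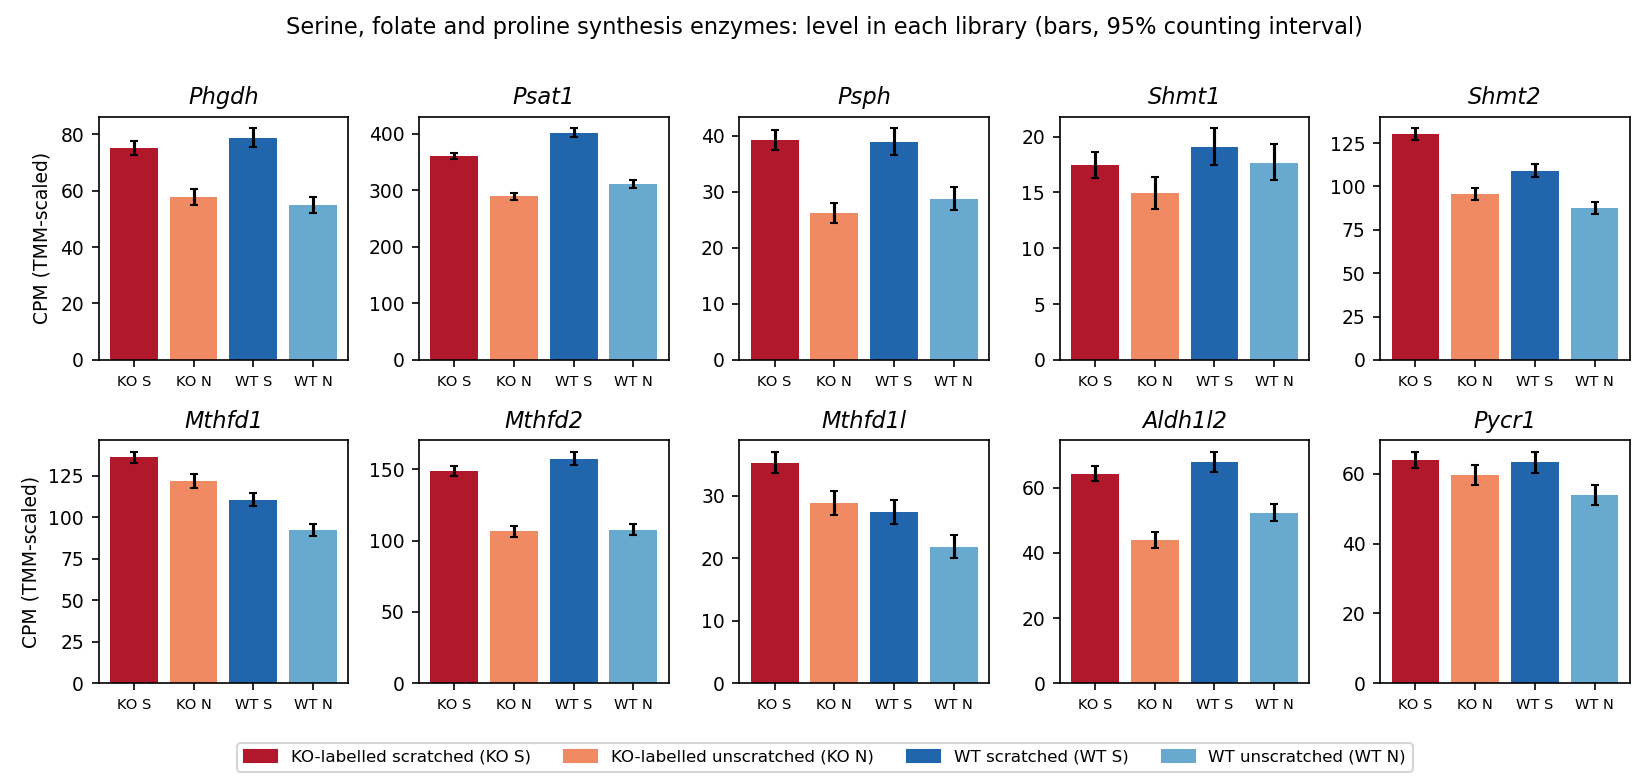
Level of each enzyme gene in CPM scaled by TMM, with 1 panel per gene, 1 bar per library and a vertical axis from 0, and error bars showing the 95% counting interval. Scratched bars stand above the unscratched bar of the same genotype in every panel, and for Mthfd1, Mthfd1l, Shmt2 and Pycr1 both KO-labelled bars stand above the WT bar of the same treatment.

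All 10 enzymes were higher after the scratch in both genotypes, by 1.07 to 1.5 times in KO-labelled cells and by 1.08 to 1.46 times in WT cells. Of all tested genes, 53.0% were higher after the scratch in KO-labelled cells and 54.5% in WT cells. The median log2 difference was 0.35 in KO-labelled and 0.35 in WT cells, against 0.01 and 0.02 over all tested genes. A ratio here is that of TMM-scaled CPM, and its 95% interval is an exact binomial (Clopper-Pearson) one from the reads in both libraries, which covers counting error only. The KO-labelled and WT pairs share no library with each other, but the comparisons of genotype given further on reuse the same 4 libraries. In bulk RNA, a change in every cell and a change in the mix of cells cannot be told apart.

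Phgdh, the entry step of serine synthesis, was counted at 75.01 CPM in KO-labelled scratched and 57.6 CPM in KO-labelled unscratched cells, and at 78.6 CPM in WT scratched and 54.7 CPM in WT unscratched cells. Both scratched libraries were above both unscratched ones, though the share of all genes so separated was not computed for this or the enzymes below. The ratio was 1.30 (1.23 to 1.38) in KO-labelled and 1.44 (1.34 to 1.54) in WT cells. Psat1, the aminotransferase, had 361 and 290 CPM in KO-labelled scratched and unscratched cells and 402 and 311 CPM in WT. Again the scratched libraries did not overlap the unscratched ones, at ratios of 1.24 (1.21 to 1.28) in KO-labelled and 1.29 (1.26 to 1.33) in WT cells. Psph, the phosphatase, had 39.3 and 26.2 CPM in KO-labelled cells and 38.9 and 28.7 CPM in WT. Its ratio of 1.5 (1.38 to 1.63) in KO-labelled cells was the largest of the 20, and that in WT was 1.36 (1.24 to 1.49).

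Shmt2, the mitochondrial serine hydroxymethyltransferase, was at 130 CPM in KO-labelled scratched and 95.6 CPM in KO-labelled unscratched cells, and at 109 and 87.6 CPM in WT, with both scratched libraries above both unscratched ones. The ratio was 1.36 (1.30 to 1.42) in KO-labelled and 1.24 (1.18 to 1.31) in WT cells. Its cytosolic counterpart Shmt1 had 17.4 and 14.9 CPM in KO-labelled cells and 19.0 and 17.7 CPM in WT. Shmt1 had the fewest reads, 441 to 834 a library, and its libraries overlapped, since WT unscratched was above KO-labelled scratched. The Shmt1 ratio was 1.17 (1.04 to 1.31) in KO-labelled cells, and the WT ratio of 1.08 had an interval that included 1 (0.9501 to 1.22).

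Among the other mitochondrial folate enzymes, Mthfd2 had 149 and 106 CPM in KO-labelled scratched and unscratched cells and 157 and 108 CPM in WT. The unscratched libraries nearly coincided, and the ratio was 1.40 (1.34 to 1.46) in KO-labelled and 1.46 (1.40 to 1.53) in WT cells. Aldh1l2, which oxidises formyl-tetrahydrofolate in mitochondria, had 64.2 and 44.0 CPM in KO-labelled cells and 67.9 and 52.4 CPM in WT. Its ratio was 1.46 (1.37 to 1.56) in KO-labelled and 1.30 (1.21 to 1.39) in WT cells, and no scratched library overlapped an unscratched one. Mthfd1l, which releases formate from mitochondria, had 35.3 and 28.8 CPM in KO-labelled cells and 27.4 and 21.8 CPM in WT. Here the libraries overlapped, because KO-labelled unscratched lay above WT scratched. The Mthfd1l ratio was 1.23 (1.13 to 1.33) in KO-labelled and 1.254 (1.12 to 1.40) in WT cells.

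Mthfd1, the cytosolic enzyme that takes up formate again, had 136 CPM in KO-labelled scratched and 122 CPM in KO-labelled unscratched cells, and 111 and 92.2 CPM in WT. It shared that overlap of KO-labelled unscratched with WT scratched, at ratios of 1.12 (1.07 to 1.16) in KO-labelled and 1.20 (1.14 to 1.26) in WT cells. Pycr1, the proline enzyme, had 63.8 and 59.6 CPM in KO-labelled cells and 63.2 and 53.9 CPM in WT. The scratched libraries of Pycr1 were above both unscratched ones by small margins, at ratios of 1.07 (1.01 to 1.14) in KO-labelled and 1.17 (1.09 to 1.26) in WT cells.

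No enzyme was called at 1.5-fold or more, where a call also needs an interval that excludes 1. Over all tested genes, 0.526% were called higher after the scratch in KO-labelled cells and 0.526% in WT cells, and 0.696% and 1.85% lower. Psph in KO-labelled cells lay just under that limit, with a log2 difference of 0.58 after a prior count of 2. At a lower limit of 0.32 on the log2 scale, 5 enzymes were higher in KO-labelled cells, against 1.47% of all genes, and 6 in WT cells, against 2.28%. None was lower in either, against 2.15% and 4.14%.

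**Figure D2:**
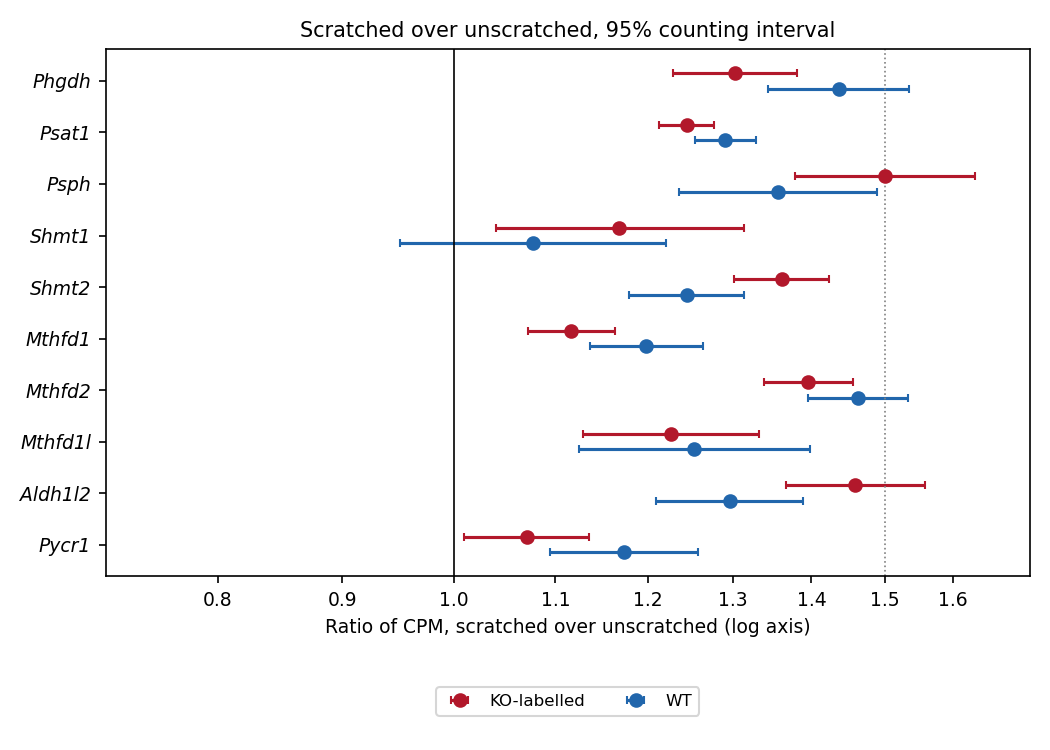
Ratio of CPM, scratched over unscratched, on a log axis for each enzyme, in KO-labelled (red, upper) and WT (blue, lower) cells, with 95% counting intervals; the solid line marks 1 and the dotted line 1.5-fold. All 20 ratios lie above 1, and the interval of Shmt1 in WT cells is the only 1 to include 1.

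Across all 4 libraries, 8 of the 10 enzymes rose with the scratch in an additive fit of genotype and scratch and none fell, by edgeR's quasi-likelihood test with Benjamini-Hochberg adjustment over 12348 genes. Over all of those genes 1.47% rose and 1.44% fell. This fit has 1 residual degree of freedom, so its p-values compare these libraries and not cultures. Mthfd2 rose by 0.51 ± 0.06 on the log2 scale (SE, adjusted p = 5.45e-06), Phgdh by 0.45 ± 0.05 (1.05e-05) and Aldh1l2 by 0.46 ± 0.06 (1.43e-05). By unadjusted p these 3 ranked 5, 6 and 7 among all genes tested. Psph rose by 0.51 ± 0.07 (adjusted p = 1.58e-04), Shmt2 by 0.38 ± 0.06 (3.23e-04) and Psat1 by 0.34 ± 0.06 (9.25e-04), at ranks 12, 19 and 26.

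Mthfd1l rose by 0.31 ± 0.08 (SE, edgeR adjusted p = 0.0264) and Mthfd1 by 0.21 ± 0.06 (0.0470), and these calls were less secure. Of 8 other settings of this fit, Mthfd1l passed in 5 and Mthfd1 in 3. Psat1 passed in 7, missing when limma was run on the RPKM values (adjusted p = 0.0569), and the other 5 passed in all 8. Shmt1, at 0.17 ± 0.09 (edgeR adjusted p = 0.361), and Pycr1, at 0.16 ± 0.05 (0.106), did not pass in the fit or in any of the 8. The number of all genes called moved far more: 181 rose and 178 fell here, against 19 and 17 under DESeq2 and 75 and 73 with TMM factors from the tested genes only. The number of enzymes that rose was 6 under DESeq2, 6 with those factors and 5 on the RPKM values.

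**Figure D3:**
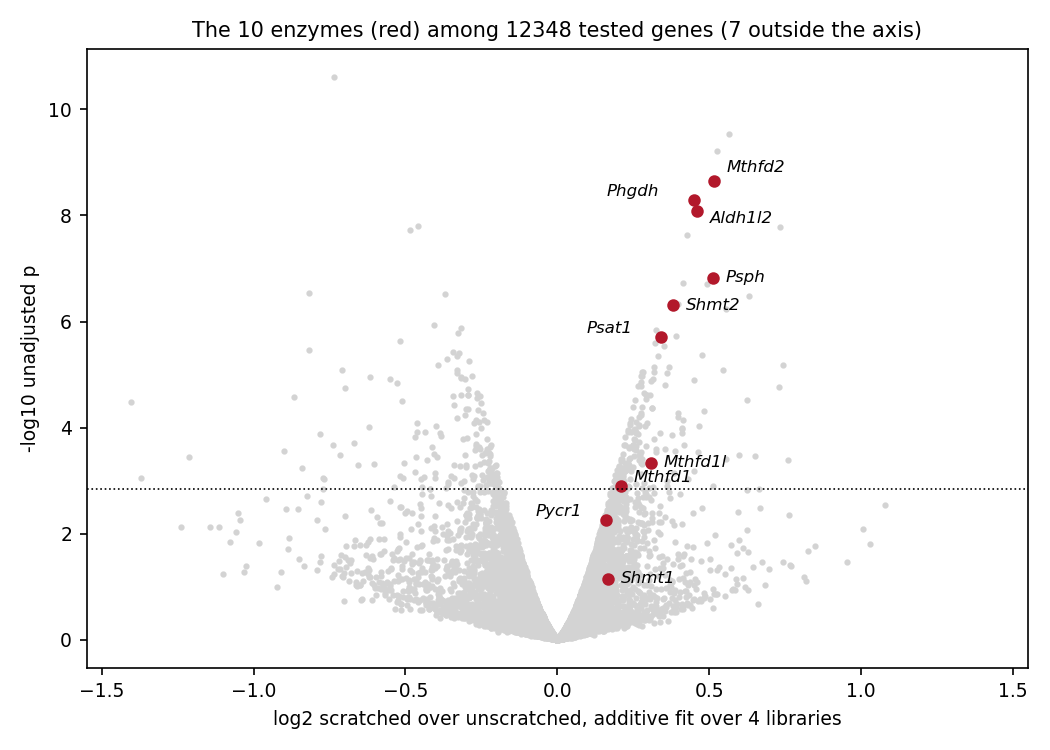
Log2 scratch effect of the additive fit (horizontal) against −log10 of the unadjusted p (vertical) for the 12348 tested genes, in grey, with 7 genes outside the axis and the 10 enzymes in red; the dotted line marks an adjusted p of 0.05. Mthfd2, Phgdh and Aldh1l2 lie near the top at log2 effects of 0.45 to 0.51, and Pycr1 and Shmt1 lie under the line.

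Some enzyme counts could hold reads of other genes, or miss reads that fall on both genes of an overlap. The strand setting of the counting is not given in the sources used here, and neither possibility was tested. Exons of Psph overlap Cct6a on the opposite strand, which had 16699 counts in KO-labelled scratched cells against 1882 for Psph. Cct6a, a chaperonin subunit, was at 1.07 times its unscratched level in KO-labelled scratched cells and 1.15 times in WT, and did not pass the test (edgeR adjusted p = 0.174). Shmt1 overlaps Smcr8 (adjusted p = 0.955 for scratch by edgeR) and Aldh1l2 overlaps D10Wsu102e (0.385), also on the opposite strand. Shmt2 overlaps Ndufa4l2, which had at most 3 counts, and Mthfd1 overlaps the noncoding RNA gene Gm47525 on the opposite strand, which was not analysed here. Phgdh has 19 annotated copies, most of them processed pseudogenes, with at least 90% identity over 200 bases or more, and none of the 8 in the count table had over 22 counts, against at least 1483 for Phgdh. The copies of Psat1 (Gm12611) and Shmt2 (Gm15544) had at most 1 count. Whether reads that match both an enzyme and a copy were left out of the enzyme's count was not tested.

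Mthfd1 and Mthfd1l, the pair that makes and takes up formate, were higher in both KO-labelled libraries, and the other 8 stayed within 0.840 to 1.19 times WT. Mthfd1 was at 1.23 times WT in scratched cells (1.18 to 1.29) and 1.32 times in unscratched cells (1.26 to 1.39). Mthfd1l was at 1.29 times (1.18 to 1.41) and 1.32 times (1.19 to 1.47). In both genes the KO-labelled library exceeded the WT library of the same treatment, and the log2 medians over the 10 enzymes were -0.03 scratched and 0.03 unscratched, against 0.00 and 0.01 over all genes.

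No enzyme was called at 1.5-fold between the genotypes, where 3.42% of genes were higher and 1.83% lower in scratched cells, and 3.48% and 2.94% in unscratched cells. At the lower limit of 0.32, Mthfd1l was higher in scratched cells (7.22% of all genes were), and Mthfd1 and Mthfd1l were higher in unscratched cells (8.93%). At that limit no enzyme was lower, against 5.43% and 7.52% of all genes. In the additive fit 3 enzymes were higher and 1 lower in KO-labelled cells, against 13.8% and 12.2% of all genes, so genotype calls were common throughout. Mthfd1l was higher by 0.38 ± 0.08 on the log2 scale (SE, edgeR adjusted p = 5.40e-04), Mthfd1 by 0.35 ± 0.06 (4.86e-05) and Shmt2 by 0.19 ± 0.06 (0.0150). Aldh1l2 fell by 0.16 on the log2 scale (SE 0.06, edgeR adjusted p = 0.0356).

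Mthfd1 passed in all 8 other settings, Mthfd1l and Shmt2 in 7, missing under DESeq2 (adjusted p = 0.0583 and 0.218), and Aldh1l2 in 4. The other 6 enzymes did not pass for genotype: Psat1 was at -0.13 ± 0.06 (edgeR adjusted p = 0.0888), Shmt1 at -0.18 ± 0.09 (0.133), and Phgdh, Psph, Mthfd2 and Pycr1 lay between -0.05 and 0.08. Some fibroblast markers differed with genotype too: 3 of 4 tested rose in KO-labelled cells, with Col1a1 at 177 and 197 CPM in KO-labelled scratched and unscratched cells against 16.5 and 21.3 CPM in WT. The summed level of all 8 fibroblast markers was 2663 and 2912 CPM in KO-labelled and 2837 and 2868 CPM in WT cells. Most of that was Dcn, which did not pass for genotype (log2 -0.13, edgeR adjusted p = 0.151). Col1a2, Col3a1 and Lum had 6 counts or fewer in every library, and Tcf21 was at 0. Of 5 tested alveolar type 2 markers 2 rose, Sftpb and Sftpc, and the whole list of 9 summed to 422 and 451 CPM in KO-labelled and 325 and 371 CPM in WT cells. Their part in the genotype values of Mthfd1 and Mthfd1l was not tested.

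**Figure D4:**
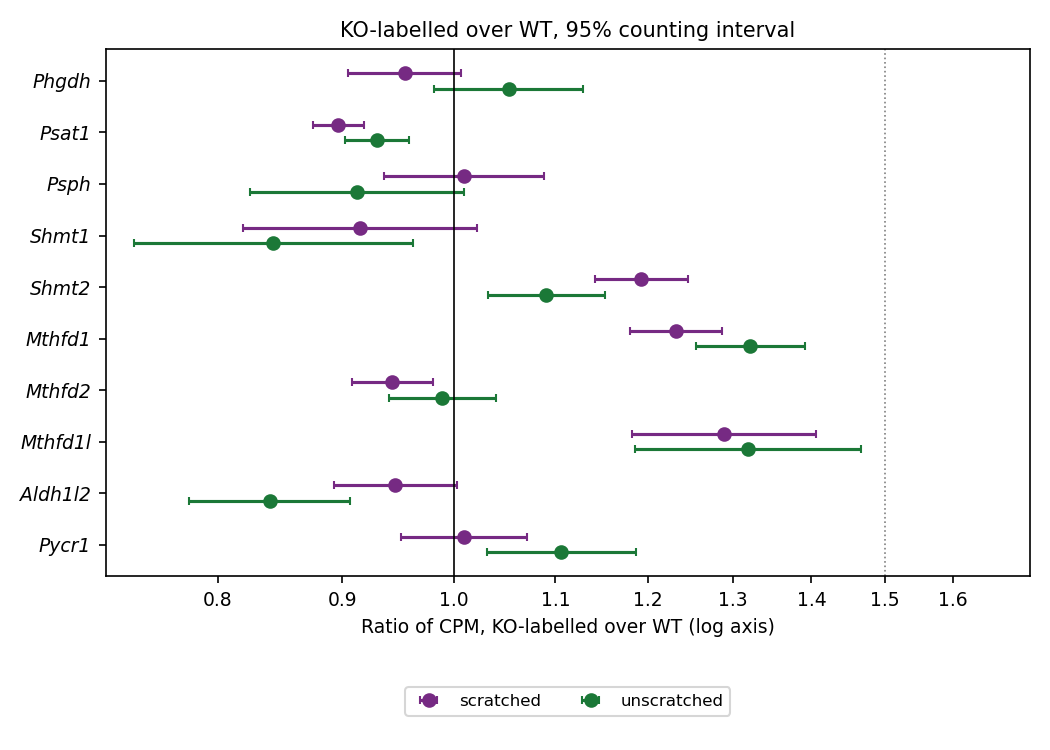
Ratio of CPM, KO-labelled over WT, on a log axis for each enzyme in scratched (purple, upper) and unscratched (green, lower) cells, with 95% counting intervals; the solid line marks 1 and the dotted line 1.5-fold. Mthfd1 and Mthfd1l lie at 1.23 to 1.32, Shmt2 at 1.09 to 1.19, and the other 7 between 0.840 and 1.11.

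The scratch responses of 5 of the 10 enzymes differed between genotypes by more than counting error, where 26.8% of all genes did. This difference leaves no residual degree of freedom, so it has a counting interval and no test. On the log2 scale, KO minus WT, it was -0.14 for Phgdh (-0.27 to -0.02), -0.10 for Mthfd1 (-0.20 to -0.01) and -0.13 for Pycr1 (-0.26 to -0.00), that is, smaller responses in KO-labelled cells. It was 0.13 for Shmt2 (0.03 to 0.23) and 0.17 for Aldh1l2 (0.03 to 0.31), larger in KO-labelled cells. No direction was shared by all 5, and with TMM factors from the tested genes 3 exceeded their interval, without Mthfd1 (-0.09) and Pycr1 (-0.12).

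Other genes of the same pathways are given by list, beside the 1.47% of all genes tested that rose with the scratch and the 1.44% that fell. At those shares, 0 calls in a short list does not set it apart from all genes. Whether lists with 1 or 2 calls differ from all genes was not tested. Of 8 tested genes of serine and glycine metabolism and 16 of folate metabolism outside the 10 enzymes, none rose or fell by edgeR's test, at medians of 0.08 and 0.02 on the log2 scale. Of 11 tested proline genes, 1 rose: Aldh18a1, which makes the proline precursor, by 0.32 ± 0.06 (SE, edgeR adjusted p = 0.00230). Genes for the same step as an enzyme above did not pass: Pycr3 was at 0.02 and Mthfd2l at -0.00, and Aldh1l1, the cytosolic partner of Aldh1l2, stayed under 1 CPM. Of 14 tested genes of purine and thymidylate synthesis, 2 rose and none fell. These were Atic (0.27 ± 0.05, edgeR adjusted p = 0.00249), of the last purine steps, and Impdh1 (0.24 ± 0.05, 0.00816), of guanine nucleotide synthesis, which are named after their values were seen and each passed in 6 of the 8 other settings. Of 7 methionine and transsulfuration genes and 16 proliferation genes, none passed, at medians of 0.05 and 0.05. No marker list of another cell type held a gene that passed for scratch.

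A list of stress and growth factors around ATF4 and MYC had the most scratch calls beside the enzymes. This list, like the others, was chosen with earlier results of these data known, so its calls and its place among the lists are a description. It holds targets of ATF4 but also regulators such as Eif2ak4, Max and Nfe2l2. Of its 16 tested genes 7 rose and 1 fell, where 1.47% and 1.44% of all genes did. The 1 that fell was Ddit4, an mTOR inhibitor, by 0.22 on the log2 scale, and Sesn2, a leucine sensor, rose by 0.36 ± 0.08 (SE, edgeR adjusted p = 0.0182); both are named after their values were seen and each passed in 5 of the 8 other settings. Its median was 0.25, against 0.36 for the 10 enzymes and 0.01 over all genes. Asns, the asparagine synthetase, had 149 and 99.9 CPM in KO-labelled scratched and unscratched cells and 168 and 114 CPM in WT, and rose by 0.57 ± 0.06 (SE, edgeR adjusted p = 1.82e-06). Trib3, a pseudokinase, rose by 0.56 ± 0.08 (edgeR adjusted p = 3.56e-04), Chac1, which degrades glutathione, by 0.48 ± 0.10 (0.00615) and Nupr1, a stress-induced chromatin protein, by 0.42 ± 0.10 (0.0165). Atf4 itself rose by 0.25 ± 0.06 (edgeR adjusted p = 0.0213), passing, like Nupr1, in 5 of the 8 other settings, and Myc by 0.36 ± 0.07 (0.00232), passing in 6. With genotype, 1 of this list was higher and 4 lower: Myc was higher by 0.71 ± 0.07 (edgeR adjusted p = 5.80e-09) while Nupr1 was at -0.53 ± 0.10 (1.63e-04) and Atf4 at -0.22 ± 0.06 (0.00819).

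With genotype, where 13.8% of all genes were higher and 12.2% lower in KO-labelled cells, 1 of 8 tested serine and glycine genes was higher and 0 lower (Dld), 2 of 16 folate genes were higher (Slc46a1, Fpgs) and 3 lower (among them Ggh and Sfxn3), and 2 of 11 proline genes were higher and 0 lower (Glud1, P4ha1). Of 14 purine and thymidylate genes 6 were higher and 0 lower, of 7 methionine genes 1 was higher (Ahcy) and 2 lower (Mat2a, Gclc), and of 16 proliferation genes 4 were higher (Mki67, Ccnb1, Aurka, Rrm2) and 4 lower (Pcna, Mcm3, Mcm4, Mcm6). Apart from Slc46a1 and Ahcy these are named after their values were seen. Slc46a1, the proton-coupled folate transporter, had 14.3 and 14.7 CPM in KO-labelled scratched and unscratched cells and 9.71 and 10.5 CPM in WT, and was higher by 0.52 ± 0.10 (SE, edgeR adjusted p = 2.04e-04). Ahcy, which clears S-adenosylhomocysteine, was higher by 0.61 ± 0.09 (edgeR adjusted p = 5.28e-06) and Adssl1, an adenylosuccinate synthase, by 0.80 ± 0.10 (7.43e-07). 

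**Figure D5:**
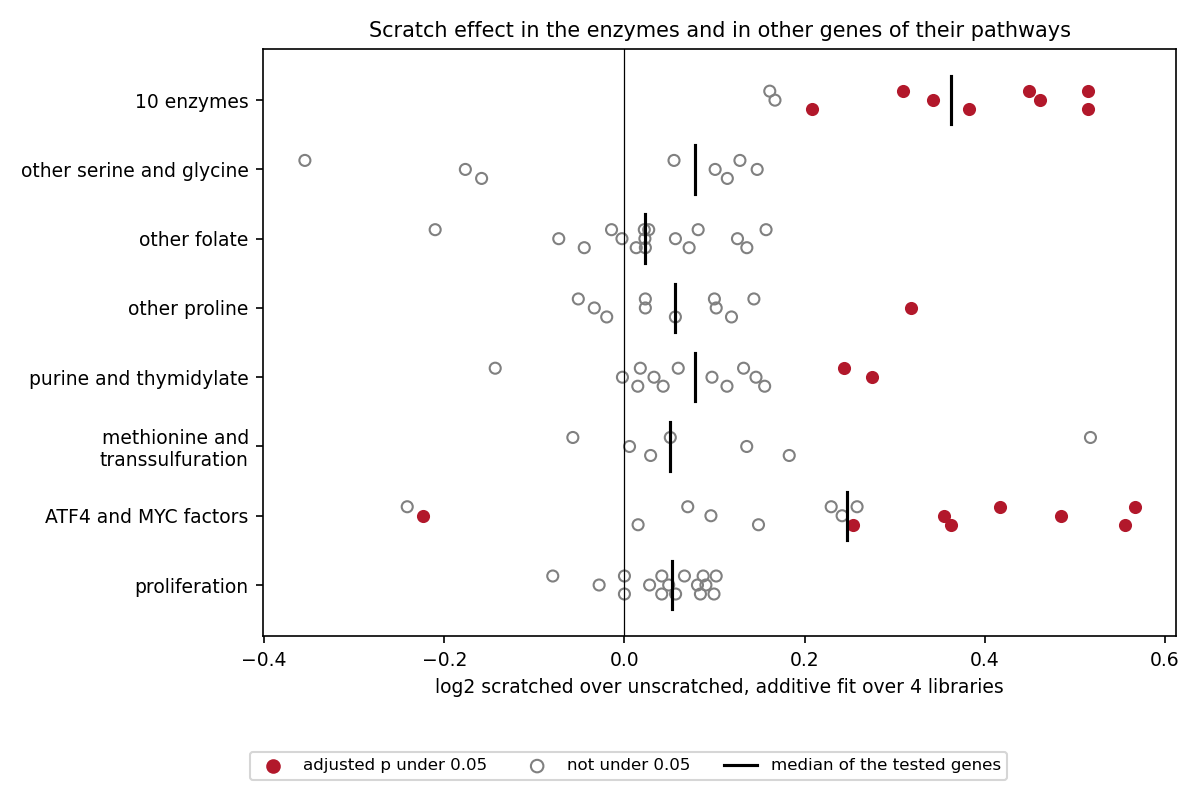
Log2 scratch effect of the additive fit for every tested gene of each list, with filled red points for an adjusted p under 0.05, open grey points for the rest and a black bar at the median. The 10 enzymes have the highest median, 0.36, followed by the ATF4 and MYC list at 0.25, with the other medians between 0.02 and 0.08. The enzymes and the lists were chosen with earlier results of these data known.

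The mean pattern of the enzymes was higher in the scratched library of each genotype: the mean of their centred log2 CPM was 0.20 in KO-labelled scratched, -0.16 in KO-labelled unscratched, 0.15 in WT scratched and -0.20 in WT unscratched cells. Of 7599 other genes with at least 20 CPM in every library, Grwd1, Slc7a1, Nars, Aldh18a1 and Tars lay nearest to that mean, at Euclidean distances of 0.0547 to 0.0780 log2 over the 4 libraries. Slc7a1, a cationic amino acid transporter, had 234 CPM in KO-labelled scratched and 191 CPM in KO-labelled unscratched cells, and 225 and 184 CPM in WT. Nars, an asparaginyl-tRNA synthetase, had 208 and 168 CPM in KO-labelled cells and 214 and 167 CPM in WT. With 4 libraries this likeness is a description.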

How the data were processed

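The authors deposited raw read counts for 46078 genes and RPKM values for 14844 of them; RPKM values were used for levels per length and, as log2(RPKM + 0.1), as an alternative. Per the submitters' processing notes the tools included edgeR 3.32.1, HTSeq 0.11.3, STAR 2.7.9a and Trimmomatic 0.39, with build mm10 and no role or order. The sources used here give neither annotation release nor strand setting. Count columns marked S were read as scratched, N as the other labelled condition (unscratched) and L1 as Lingo1 KO; every statement on scratch and genotype rests on that reading.

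Counts were scaled by TMM over all genes (edgeR 4.0.16, R 4.3.3), and genes with at least 1 CPM in at least 1 library were kept (12348). Folds are ratios of CPM with exact 95% Clopper-Pearson intervals, computed with scipy 1.17.1; a call needs a log2 difference, with a prior count of 2, of at least the log2 of 1.5 and an interval excluding 1. An additive quasi-likelihood fit of genotype and scratch used all 4 libraries (biological coefficient of variation 5.49%, 25.4 prior and 1 residual degrees of freedom) with Benjamini-Hochberg adjustment at 0.05. The scripts were tested on simulated data. Intervals cover counting error only, and reads carry no molecular identifiers. As CPM, 3 counts (the limit set by a count of 0) equal 0.0626, 0.101, 0.108 and 0.111 CPM in KO-labelled scratched, KO-labelled unscratched, WT scratched and WT unscratched libraries.

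The enzymes and the lists were chosen with earlier results of these data known. All 10 enzymes are named, and list genes are named if they passed with a log2 effect of at least 0.4, catalyse a member's step, or are Aldh18a1, Atf4 or Myc; some list genes are not reported here. Alternatives changed scaling, low-count filter, fold limit, prior count, tool (DESeq2 1.42.0, limma 3.58.1) and table. Gene copies were found with BLAST 2.17.0+.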

Additional observations from a re-analysis of the deposited data

Results flagged for a closer look

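For 2 enzymes the KO-labelled cells stood on opposite sides of WT in the scratched and the unscratched comparison, and this difference was not tested because no replicates exist. Phgdh was at 0.954 times WT in scratched cells (95% counting interval 0.905 to 1.01) and at 1.05 times in unscratched cells (0.981 to 1.13), a log2 difference of -0.14. Psph was at 1.01 times WT in scratched cells (0.936 to 1.09) and at 0.912 times in unscratched cells (0.825 to 1.01), a log2 difference of 0.15. All 4 intervals include 1.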

How the results depend on the processing

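No paired analysis was possible because each condition has 1 library and the labels give no replicate numbers; leaving out a library could not be fitted, since no residual degree of freedom would remain. No enzyme effect of the additive fit that passed, in the main fit or in another setting, changed sign between them. Effects near 0 could change sign: Phgdh with genotype was at -0.00178 in the main fit and 0.00198 in edgeR's newer bias-adjusted fit. With a fold limit of 0.32 on the log2 scale in place of the log2 of 1.5, 5 enzymes were called higher after the scratch in KO-labelled and 6 in WT cells, and 1 and 2 were higher in KO-labelled over WT cells when scratched and unscratched, in place of 0. Genes that rose and fell with the scratch over all tested genes numbered 181 and 178, against 75 and 73 with TMM factors from the tested genes only (chosen after seeing the data, as was edgeR's newer bias-adjusted fit), 19 and 17 with DESeq2, 22 and 24 with limma on RPKM values, and 268 that fell with no low-count filter. Of the enzymes, 5 rose with limma on RPKM values in place of 8. For genotype, DESeq2 called 560 genes higher and 408 lower in place of 1704 and 1501, and 1 enzyme higher in place of 3. The fall of Aldh1l2 with genotype left 0 enzymes lower with TMM factors from the tested genes, no low-count filter, DESeq2 or limma on RPKM. Differences of the scratch responses beyond counting error numbered 3 in place of 5 with TMM factors from the tested genes. The causes of these shifts were not tested. Depth limits Shmt1 most, at 441 to 834 reads.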
